A study of Rattus norvegicus with 27 samples.

Results

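The genes described here encode trophic factors and their receptors: Nrg1 and Igf1 as ligands, and Ntrk2, Ntrk3, Erbb4, Ret and Gfra1 as receptors. They were taken as every probe set that the platform annotation gives to 1 of 9 gene symbols and no other. This gave 13 probe sets of 7 genes among the 12913 probe sets tested, which cover 9769 genes in all. Nrg1 had 4 probe sets, Ntrk2, Ret and Gfra1 had 2 each, and Igf1, Ntrk3 and Erbb4 had 1 each. Bdnf and Igf1r had 0 single-symbol probe sets and were not analysed here.

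The samples were tail motor neurons of male Wistar rats, identified by the retrograde tracer Fluorogold, laser-dissected from the sacral cord and hybridised to Affymetrix rat expression arrays after 2 rounds of RNA amplification. The groups were Spi-21 (8 arrays, spinal cord transected at the second sacral segment, 21 days), ShamC-21 (6 arrays, opened vertebrae with the dura left whole, 21 days), Spi-60 (8 arrays, transected, 60 days) and ShamC-60 (5 arrays, sham, 60 days). All groups carried the tracer. Samples pool many neurons, the labels number them as biological replicates without tying them to animals, and the p-values therefore measure the spread between these samples, which may be in part technical. The ages of the rats were not given in the sources used here. Values are log2 signals made by RMA, so a difference of 1 is a doubling, and levels of different probe sets are not compared with each other, since each has its own probes.

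Neuregulin-1 is made by motor neurons as membrane-bound and secreted isoforms, and it signals through ErbB receptors on glia, muscle and neurons. TrkB, encoded by Ntrk2, is the receptor of BDNF and NT-4, and TrkC, encoded by Ntrk3, is that of NT-3; both support motor neuron survival and synaptic function. GDNF binds GFRα1 (Gfra1), which then engages the receptor tyrosine kinase RET, and this pair is a classical survival receptor of motor neurons. IGF-1 acts through IGF1R on neurons, muscle and glia, and its availability is set by IGF-binding proteins.

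The dissected neurons carried motor neuron transcripts. The mean of the 10 measured motor neuron markers (of 14 listed) lay between 10.56 and 10.93 in Spi-21, 10.85 and 11.11 in ShamC-21, 10.73 and 11.04 in Spi-60, and 9.28 and 10.93 in ShamC-60, where replicate 4 had the 9.28 and the next array 10.75. Chat was not among the measured markers, and the LIM factor Isl1, at 5.74 to 6.44, lay near or below the array medians of 6.31 to 6.41. Astrocyte markers were also present, with list means of 8.69 to 9.54 in Spi-21, 8.17 to 9.27 in ShamC-21, 8.99 to 9.93 in Spi-60 and 8.68 to 9.83 in ShamC-60 (7 of 10 genes measured). Within ShamC-60, replicate 1 had the highest fibroblast and pericyte mean, 7.70, and replicate 4 the next, 6.51, against 5.37 to 5.65 in the other 3 arrays. In ShamC-21, replicates 5 and 6 had means of 6.07 and 6.53. The 3' minus 5' signal of the GAPDH control was 0.99 to 1.46 in Spi-21 replicates 5 to 8. It was 2.57 to 3.47 in replicates 1 to 4 and 2.65 to 3.26 in ShamC-21. Results that rest on these arrays are given with and without them. At 60 days the GAPDH signal differed by operation, with 2.845 to 3.85 in Spi-60, against 2.31 to 2.92 in ShamC-60, and a small overlap. The part of this control signal in the 60-day differences was not tested.

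Transected arrays were compared with sham arrays of the same day in 1 limma fit over all probe sets, with Benjamini-Hochberg adjustment and a threshold of 0.05. At 21 days 4 of the 13 probe sets passed (30.8%), 3 higher and 1 lower, beside 22.6% of all probe sets (11.3% higher, 11.2% lower). At 60 days 4 of 13 passed again (30.8%), 3 higher and 1 lower, beside 19.1% of all (10.2% higher, 8.92% lower). The median difference over the 13 was -0.0039 at 21 days, against 0.01 over all probe sets, and 0.09 at 60 days, against 0.02. The genes were therefore not read as a group but one by one.

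**Figure D1:**
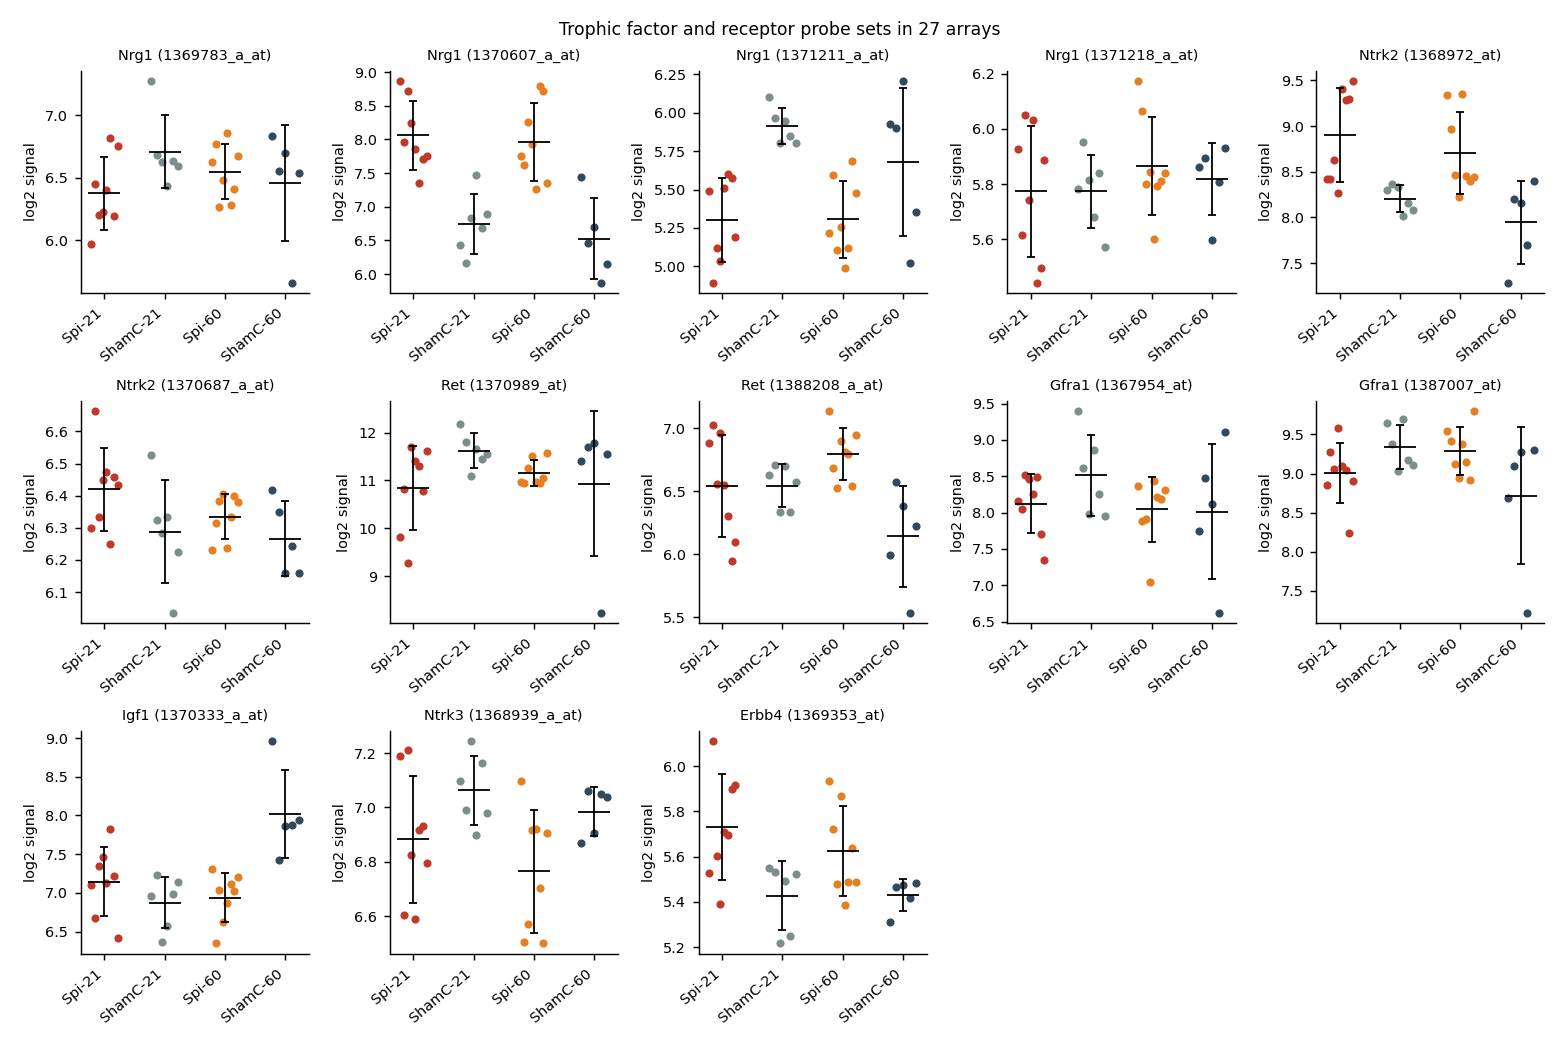
Log2 signal of each of the 13 probe sets in every array of Spi-21, ShamC-21, Spi-60 and ShamC-60; points are arrays and black bars are the mean ± SD. Nrg1 probe set 1370607_a_at and Ntrk2 probe set 1368972_at were higher in both transected groups, and the 8 Spi-60 arrays of Igf1, at 6.35 to 7.30, lay below the ShamC-60 arrays, at 7.42 to 8.96.

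**Figure D2:**
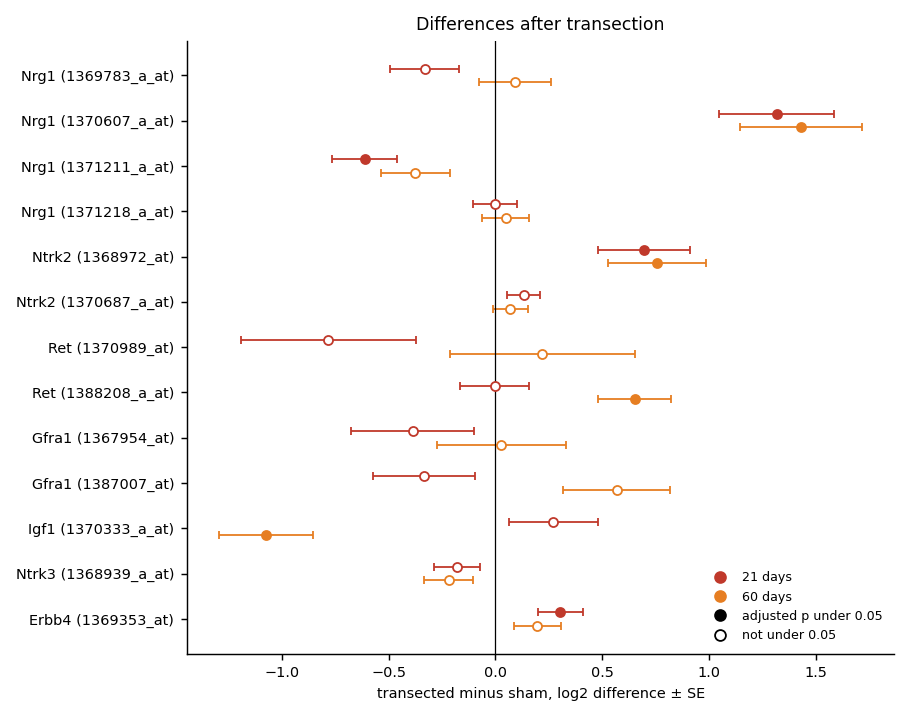
Transected minus sham log2 difference ± SE of each probe set at 21 days (red) and 60 days (orange), with filled points for an adjusted p under 0.05. The probe sets of Nrg1 point in different directions, from -0.61 to 1.32 at 21 days.

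The ligand Nrg1 rose on 1 probe set and fell on another. On probe set 1370607_a_at the lowest, median and highest signals were 7.36, 7.91 and 8.87 in Spi-21, against 6.16, 6.76 and 7.46 in ShamC-21. On the same probe set they were 7.26, 7.84 and 8.79 in Spi-60, against 7.44, 6.46, 6.70, 5.87 and 6.15 in the 5 ShamC-60 arrays in order of replicate. Of the transected arrays, 7 of 8 lay above every sham array at 21 days and 6 of 8 at 60 days, so the groups overlapped slightly at both times. Nrg1 was 2.49-fold higher at 21 days (log2 difference 1.32 ± 0.27 SE, limma adjusted p = 0.00135) and 2.70-fold higher at 60 days (1.43 ± 0.29 SE, adjusted p = 0.00102). Since each array reads pooled neurons, a change of transcript per neuron and a change in the number of neurons that hold it cannot be told apart, here and for the genes below.

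Probe set 1371211_a_at of Nrg1 went the other way at 21 days. Its lowest, median and highest signals were 4.89, 5.34 and 5.60 in Spi-21, against 5.80, 5.90 and 6.11 in ShamC-21, without overlap, a separation that 5.30% of all probe sets showed at this time. The difference was -0.61 ± 0.15 SE (limma adjusted p = 0.00581), 1.53-fold lower. At 60 days the signals were 4.99, 5.24 and 5.69 in Spi-60, against 5.93, 5.90, 6.21, 5.02 and 5.36 in ShamC-60, and the difference of -0.38 ± 0.16 SE did not pass (adjusted p = 0.1). The ShamC-60 arrays at 5.02 and 5.36 lay among the transected ones, and without replicate 4, at 5.02, the difference was -0.54 and passed (adjusted p = 0.0203), while without replicates 1 and 4 it was -0.52 and did not pass (adjusted p = 0.0704). This probe set lay below the array median in all 27 arrays.

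The other Nrg1 probe sets did not pass at either time with all arrays. Probe set 1369783_a_at had a mean of 6.38 ± 0.29 (SD, n = 8) in Spi-21 and 6.71 ± 0.29 (n = 6) in ShamC-21, and 6.55 ± 0.22 (n = 8) in Spi-60 and 6.46 ± 0.46 (n = 5) in ShamC-60. Its differences were -0.33 ± 0.16 SE at 21 days (limma adjusted p = 0.136) and 0.09 ± 0.17 SE at 60 days (adjusted p = 0.742). At 21 days it passed in Spi-21 replicates 1 to 4 alone (-0.50 ± 0.19 SE, adjusted p = 0.0456) and not in replicates 5 to 8 (-0.17 ± 0.19 SE, adjusted p = 0.621). Probe set 1371218_a_at differed by -0.00033 ± 0.10 SE and 0.05 ± 0.11 SE, with group means between 5.77 and 5.87. The files do not say which Nrg1 isoforms each probe set reads, so the opposite directions at 21 days are given by probe set and are not assigned to isoforms.

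Igf1, the other ligand, differed from sham at 60 days. Its signals were 6.35, 7.03 and 7.30 at the lowest, median and highest in Spi-60, against 8.96, 7.42, 7.87, 7.88 and 7.94 in the 5 ShamC-60 arrays. All 8 transected arrays lay below every sham array, a separation that 8.19% of all probe sets showed at this time. Igf1 was 2.11-fold lower after transection (log2 difference -1.07 ± 0.22 SE, limma adjusted p = 0.00133). At 21 days the signals were 6.42, 7.18 and 7.82 in Spi-21, against 6.37, 6.98 and 7.23 in ShamC-21, with overlapping ranges and a difference of 0.27 ± 0.21 SE that did not pass (adjusted p = 0.365).

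Of the 4 groups, ShamC-60 had the highest mean of Igf1. Spi-60 averaged 6.94 ± 0.32 (SD, n = 8) and Spi-21 7.15 ± 0.44 (n = 8), while ShamC-60 averaged 8.01 ± 0.57 (n = 5) and ShamC-21 6.88 ± 0.33 (n = 6). The 60 minus 21 day difference was -0.21 ± 0.19 SE in transected arrays (limma adjusted p = 0.704). It was 1.14 ± 0.23 SE in sham arrays (adjusted p = 0.545), in which all 5 ShamC-60 arrays lay above every ShamC-21 array, and neither passed. The difference between the transection effects of both days was -1.35 ± 0.30 SE (limma adjusted p = 0.44), and 0% of all probe sets passed in that comparison.

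Fibroblast and pericyte genes were also high in ShamC-60 replicate 1, which had the highest Igf1 signal. The list mean was 7.70 there and 6.51 in replicate 4. In the 3 other ShamC-60 arrays, at 5.37 to 5.65, Igf1 read 7.42, 7.87 and 7.94, above the 7.30 of the highest Spi-60 array. ShamC-21 replicates 5 and 6 had list means of 6.07 and 6.53. Their Igf1 signals were 6.99 and 7.14, within the ShamC-21 range of 6.37 to 7.23. Without ShamC-60 replicates 1 and 4 the 60-day difference of Igf1 was -0.80 (adjusted p = 0.0336). A glial marker mean was made for each array by averaging the means of the astrocyte, oligodendrocyte, and microglia and macrophage lists. With this glial marker mean as a covariate the 60-day difference of Igf1 was -1.23 (adjusted p = 0.000217). The fibroblast and pericyte mean was not used as a covariate, and its part in the result was not tested beyond these values. Blood cell list means were 6.65 to 7.10 in Spi-60, against 6.92 to 8.35 in ShamC-60 (4 of 5 genes measured). ShamC-60 replicate 1 was the highest on this list too, but ShamC-21 replicate 5, with its fibroblast and pericyte mean of 6.07, had a blood mean of 6.84. Of the 4 blood genes 1 was called lower at 60 days and 0 higher, and their part in the result was not tested.

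**Figure D3:**
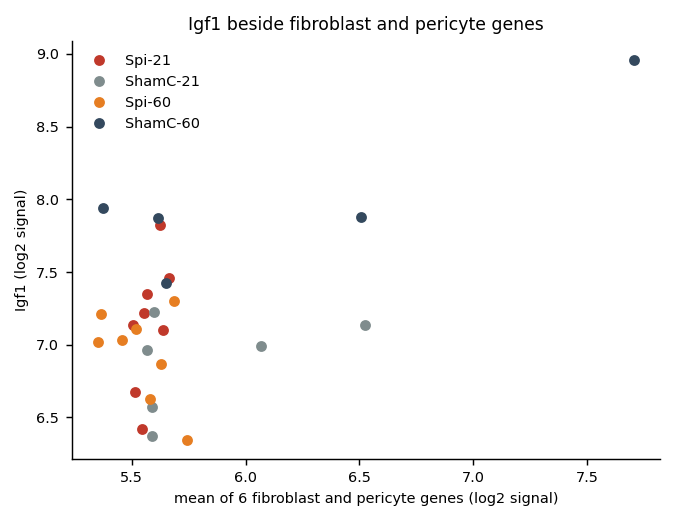
Log2 signal of Igf1 (vertical) against the mean log2 signal of 6 fibroblast and pericyte genes (horizontal), 1 point per array and 1 colour per group. The ShamC-60 array with the highest fibroblast and pericyte mean, 7.70, also has the highest Igf1 signal, 8.96. The 3 ShamC-60 arrays with means of 5.37 to 5.65 have Igf1 signals of 7.42 to 7.94. ShamC-21 replicates 5 and 6, with means of 6.07 and 6.53, have Igf1 signals of 6.99 and 7.14.

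In the RefSeq promoter table for rat (GRCr8), Igf1, Erbb4 and the GDNF receptor genes Ret and Gfra1 are listed, while Nrg1, Ntrk2 and Ntrk3 were not found there. The window from 250 bases before to 50 bases after the annotated start is printed for 3 of them because Igf1 and Ret passed at 60 days and Gfra1 encodes the co-receptor of RET. Capitals mark matches to a GC box (GGGCGG on either strand). Igf1 lies at chr7:24172282-24172581 on the + strand, Ret at chr4:153040507-153040806 on the - strand and Gfra1 at chr1:267555762-267556061 on the - strand.
Igf1: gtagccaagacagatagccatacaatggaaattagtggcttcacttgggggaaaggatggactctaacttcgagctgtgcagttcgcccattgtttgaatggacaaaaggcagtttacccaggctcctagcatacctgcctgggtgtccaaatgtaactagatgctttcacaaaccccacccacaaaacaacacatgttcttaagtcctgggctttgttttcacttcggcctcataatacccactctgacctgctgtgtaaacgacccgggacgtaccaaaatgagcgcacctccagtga
Ret: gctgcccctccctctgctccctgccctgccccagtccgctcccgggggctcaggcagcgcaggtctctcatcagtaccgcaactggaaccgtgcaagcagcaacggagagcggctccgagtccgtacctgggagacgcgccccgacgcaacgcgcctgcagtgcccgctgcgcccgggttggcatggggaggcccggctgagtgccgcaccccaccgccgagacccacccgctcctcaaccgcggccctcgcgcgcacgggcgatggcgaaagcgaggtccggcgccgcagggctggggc
Gfra1: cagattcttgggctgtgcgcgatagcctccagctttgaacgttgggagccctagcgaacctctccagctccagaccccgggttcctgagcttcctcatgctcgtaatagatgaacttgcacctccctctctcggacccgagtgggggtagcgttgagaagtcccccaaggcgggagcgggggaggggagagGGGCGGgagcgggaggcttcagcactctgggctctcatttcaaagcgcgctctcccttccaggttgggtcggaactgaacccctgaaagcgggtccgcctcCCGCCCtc
The Gfra1 window held 2 GC boxes, the Erbb4 window, which is not printed, held 1, and the Igf1 and Ret windows held 0. A GC box was found in 33.1% of 33469 rat promoter windows of the same length. The letters of a CRE core (TGACG, in 21.2% of windows), an AP-1 site (TGANTCA, in 7.33%) and a TATA box (TATAAA, in 14.2%) were searched on both strands and matched none of the 4 windows. A match or its absence describes these letters in 1 window only, and other starts of these genes were not searched.

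Among the receptors, Ntrk2 rose on 1 of its probe sets at both times. On probe set 1368972_at the signals of Spi-21 were 8.27, 8.95 and 9.50 at the lowest, median and highest, against 8.02, 8.22 and 8.36 in ShamC-21. On it the Spi-60 signals were 8.22, 8.46 and 9.35, against 7.28, 8.20, 8.16, 7.69 and 8.40 in the ShamC-60 arrays. Ntrk2 lay above every sham array in 7 of 8 Spi-21 and 6 of 8 Spi-60 arrays, and both pairs of groups overlapped. The difference was 0.70 ± 0.22 SE at 21 days (1.62-fold, limma adjusted p = 0.0217) and 0.76 ± 0.23 SE at 60 days (1.69-fold, adjusted p = 0.0206). The second probe set, 1370687_a_at, had group means of 6.42 in Spi-21, 6.29 in ShamC-21, 6.33 in Spi-60 and 6.27 in ShamC-60 and did not pass (0.13 ± 0.08 and 0.07 ± 0.08 SE).

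The Spi-21 arrays of Ntrk2 fell into separate ranges. Replicates 1 to 4 lay between 8.27 and 8.63 and replicates 5 to 8, which had the low GAPDH 3' minus 5' signal, between 9.28 and 9.50. Taken alone against ShamC-21, replicates 1 to 4 differed by 0.23 ± 0.21 SE (limma adjusted p = 0.44) and replicates 5 to 8 by 1.17 ± 0.21 SE (adjusted p = 0.00159). The 21-day rise of Ntrk2 was therefore not called in the arrays whose control signal resembled that of the shams.

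At 60 days, the call of Ntrk2 depended on the same pair of sham arrays as above. Without ShamC-60 replicate 1 the difference was 0.59 (adjusted p = 0.0914), without replicate 4 it was 0.69 (adjusted p = 0.0631), and without both it was 0.45 (adjusted p = 0.318). Astrocytes carry TrkB too. Of the 7 measured astrocyte genes, 3 were higher at 21 days and 1 at 60 days, and 0 were lower. These counts stand beside the 22.6% and 19.1% of all probe sets that passed. Within ShamC-60, astrocyte and Ntrk2 signals did not rise together. Replicates 1 and 4 had the highest astrocyte means of that group, 9.83 and 9.67, and its lowest Ntrk2 signals, 7.28 and 7.69. The part of astrocytes alone in the result was not tested, since the covariate that follows also averages oligodendrocyte and microglia and macrophage genes. With the glial marker mean as a covariate, the Ntrk2 differences were 0.92 (adjusted p = 0.00329) at 21 days and 0.93 (adjusted p = 0.00305) at 60 days.

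**Figure D4:**
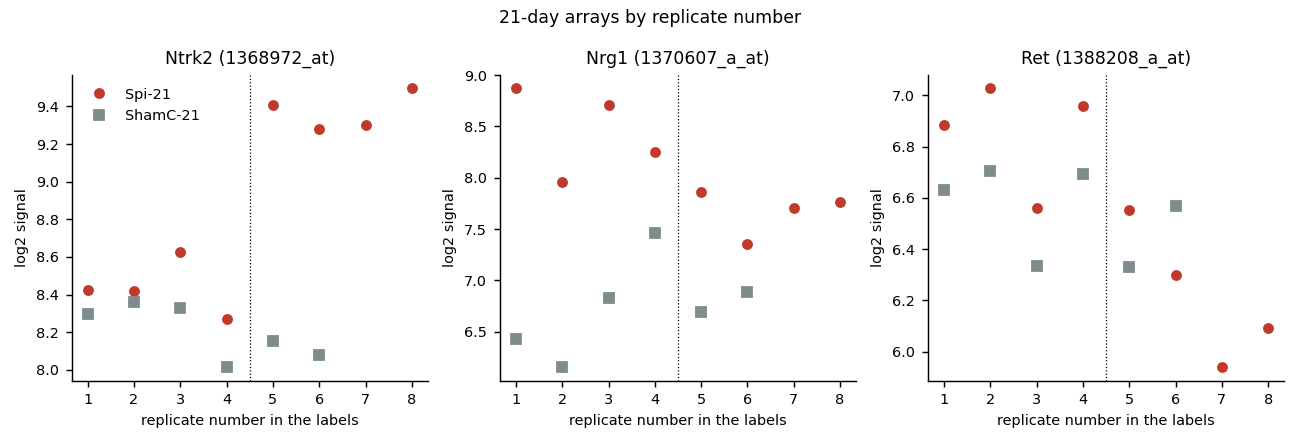
Log2 signal of Ntrk2, Nrg1 and Ret in Spi-21 (red circles) and ShamC-21 (grey squares) by replicate number in the labels; the dotted line parts Spi-21 replicates 1 to 4 from 5 to 8. Ntrk2 lies between 9.28 and 9.50 in Spi-21 replicates 5 to 8 and at most at 8.63 in replicates 1 to 4, while Nrg1 is above most ShamC-21 arrays in both sets. The labels do not say that equal replicate numbers pair samples.

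The same split was made for the other probe sets that passed. Nrg1 probe set 1370607_a_at was 1.71 ± 0.31 SE higher in replicates 1 to 4 (limma adjusted p = 0.000452) and 0.93 ± 0.30 SE higher in replicates 5 to 8, where it missed the threshold (adjusted p = 0.0512). Nrg1 probe set 1371211_a_at differed by -0.78 (adjusted p = 0.00274) and -0.44 (adjusted p = 0.104) in these sets. Ret probe set 1388208_a_at differed by 0.31 ± 0.16 SE in replicates 1 to 4 and by -0.32 ± 0.16 SE in replicates 5 to 8, on opposite sides of 0, with adjusted p = 0.137 and 0.204. Erbb4 differed by 0.23 ± 0.13 SE in replicates 1 to 4 (adjusted p = 0.172) and by 0.38 ± 0.11 SE in replicates 5 to 8 (adjusted p = 0.028).

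Ret rose at 60 days on 1 of its probe sets. On 1388208_a_at the Spi-60 signals were 6.53, 6.80 and 7.14 at the lowest, median and highest, against 5.99, 6.58, 6.38, 5.53 and 6.22 in the ShamC-60 arrays. The group overlap was limited, with 6 of 8 Spi-60 arrays above every sham array, and the difference was 0.65 ± 0.17 SE (1.57-fold, limma adjusted p = 0.00873). Leaving out ShamC-60 replicate 4 gave 0.50 (adjusted p = 0.0498), and leaving out replicates 1 and 4 gave 0.40, which did not pass (adjusted p = 0.206). At 21 days the group means were 6.54 in both Spi-21 and ShamC-21, and the difference was -0.0039 ± 0.16 SE (adjusted p = 0.989). At 60 days they were 6.79 in Spi-60 and 6.14 in ShamC-60. The 60-day difference thus joined a higher transected mean (0.25 ± 0.15 SE from 21 days) and a lower sham mean (-0.40 ± 0.18 SE). Neither of these changes between days passed with all arrays.

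The other Ret probe set, 1370989_at, did not pass at either time. Its signals were 9.28, 11.06 and 11.70 in Spi-21, against 11.09, 11.60 and 12.19 in ShamC-21, and 10.94, 11.01 and 11.58 in Spi-60, against 11.40, 11.70, 11.78, 8.23 and 11.56 in ShamC-60. Replicate 4 of ShamC-60, which also had the lowest motor neuron marker mean, was the only sham array below 11. The differences of Ret were -0.78 ± 0.41 SE at 21 days (limma adjusted p = 0.168) and 0.22 ± 0.43 SE at 60 days (adjusted p = 0.757). Without ShamC-60 replicate 4 the 21-day difference stayed at -0.78 and passed (adjusted p = 0.0363), and the 60-day difference was -0.46 (adjusted p = 0.354).

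Gfra1, the GDNF-binding co-receptor, did not pass on either probe set. Probe set 1387007_at averaged 9.01 ± 0.38 (SD, n = 8) in Spi-21 and 9.34 ± 0.28 (n = 6) in ShamC-21, with a difference of -0.33 ± 0.24 SE (limma adjusted p = 0.323). At 60 days the Spi-60 signals of Gfra1 were 8.92, 9.26 and 9.80, against 8.69, 9.10, 9.28, 7.22 and 9.30 in ShamC-60, and the difference was 0.57 ± 0.25 SE (adjusted p = 0.111). Replicate 4 of ShamC-60 was again the lowest, and without it the 60-day difference was 0.19 (adjusted p = 0.543). On probe set 1367954_at the differences were -0.39 ± 0.29 SE (adjusted p = 0.346) and 0.03 ± 0.30 SE (adjusted p = 0.959).

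Erbb4, a neuregulin receptor, rose slightly at 21 days. Its signals were 5.39, 5.70 and 6.11 in Spi-21, against 5.22, 5.51 and 5.55 in ShamC-21, with 6 of 8 transected arrays above every sham array. The difference was 0.30 ± 0.10 SE (1.23-fold, limma adjusted p = 0.0368), and it lost its call when any of 6 single arrays was left out, with 0.25 to 0.35 and adjusted p up to 0.0891 over all arrays left out in turn. Those arrays were Spi-21 replicates 2, 7 and 8 and ShamC-21 replicates 3, 4 and 5. At 60 days the Erbb4 signals were 5.39, 5.56 and 5.93 in Spi-60, against 5.31, 5.46, 5.47, 5.42 and 5.48 in ShamC-60, and the difference of 0.20 ± 0.11 SE did not pass (adjusted p = 0.215). Erbb4 lay below the array median in all 27 arrays.

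Ntrk3, the receptor of NT-3, did not pass at either time. Its means were 6.88 ± 0.23 (SD, n = 8) in Spi-21 and 7.06 ± 0.13 (n = 6) in ShamC-21, and 6.77 ± 0.23 (n = 8) in Spi-60 and 6.99 ± 0.09 (n = 5) in ShamC-60. The differences were -0.18 ± 0.11 SE (limma adjusted p = 0.231) and -0.22 ± 0.11 SE (adjusted p = 0.172).

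Whether the transection effect differed between the days was asked by the interaction contrast of the same fit. In limma 0 of the 13 probe sets passed, and 3 were below 0.05 before adjustment. They were Igf1, given above, Ret probe set 1388208_a_at (0.66 ± 0.24 SE, adjusted p = 0.647) and Gfra1 probe set 1387007_at (0.90 ± 0.35 SE, adjusted p = 0.647). Of all probe sets, 905 were below 0.05 before adjustment and 0% passed. Nrg1 probe set 1370607_a_at and Ntrk2 probe set 1368972_at differed between days by 0.12 ± 0.39 and 0.06 ± 0.31 SE. Without Spi-21 replicates 1 to 4, Ret probe set 1388208_a_at passed in this contrast (0.97, adjusted p = 0.0252) and in 60 minus 21 days within the transected arrays (0.57, adjusted p = 0.0334). Within transected arrays 0 of the 13 passed with all arrays, beside 0.0852% of all probe sets, and 0 were below 0.05 before adjustment. Within sham arrays 0 passed, beside 0% of all, and 3 were below 0.05 before adjustment. They were the same 3 probe sets as in the interaction. Igf1 is given above, and Ret probe set 1388208_a_at (-0.40 ± 0.18 SE) and Gfra1 probe set 1387007_at (-0.62 ± 0.27 SE) were lower in ShamC-60 than in ShamC-21. The 21-day and 60-day comparisons use different arrays of both operations.

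The wider pathways were described by counts of genes, each through its probe set of highest mean signal, with the genes above included, and are to be read beside the 22.6% of all probe sets that passed at 21 days and the 19.1% at 60 days. No list was tested. In the list of neurotrophins and their receptors (10 of 15 genes measured) 2 rose at 21 days and 2 at 60 days, and 0 fell: Ntrk2 and Bex3, a partner of the p75 neurotrophin receptor. That is 20% of the list at each time, or 25% and 16.7% with every probe set counted. Of those 12 probe sets, 2 were higher and 1 lower at 21 days, and 2 were higher and 0 lower at 60 days. Bex3 was 0.33 ± 0.10 SE higher at 21 days (limma adjusted p = 0.0224) and 0.57 ± 0.11 SE higher at 60 days (adjusted p = 0.000752). Its 21-day call was lost without ShamC-21 replicate 2 (0.31, adjusted p = 0.0502) or replicate 5 (0.31, adjusted p = 0.0524), and without Spi-21 replicates 1 to 4 (0.28, adjusted p = 0.122). With the glial marker covariate that call was lost too (0.29, limma adjusted p = 0.0646). The list's median difference was 0.0093 at 21 days and 0.17 at 60 days.

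In the GDNF family list (9 of 13 measured) 1 gene rose at 21 days (11.1%) and 0 at 60 days (0%), and 0 fell. That gene was Sdc3, a heparan sulfate proteoglycan that can bind GDNF, which was 0.32 ± 0.09 SE higher in Spi-21 (limma adjusted p = 0.00835). All 8 Spi-21 arrays of Sdc3 lay above every sham array, a separation that 5.30% of all probe sets showed at this time. Its means were 6.34 in Spi-21 and 6.01 in ShamC-21, beside array medians of 6.31 to 6.41. Ret counts here by probe set 1370989_at, so the 60-day rise on the other one stands outside these counts. It was not the only rise outside them. With every probe set counted, 14 in all, 3 were higher at 21 days and 2 at 60 days, and 0 were lower. The median difference was 0.05 at 21 days and 0.20 at 60 days.

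In the insulin-like growth factor list (12 of 17 measured) 2 genes rose at 21 days and 0 fell, and at 60 days 1 rose and 1, Igf1, fell, which is 16.7% of the list at each time. Igf2r, which clears IGF-2 and carries lysosomal enzymes, was 0.55 ± 0.14 SE higher in Spi-21 (limma adjusted p = 0.00816), and the binding protein gene Igfbp5 0.28 ± 0.07 SE higher (adjusted p = 0.00854). Igfbp6, which encodes a binding protein with a preference for IGF-2, averaged 8.55 ± 0.28 (SD, n = 8) in Spi-60 and 7.04 ± 0.10 (n = 5) in ShamC-60. All 8 Spi-60 arrays lay above every sham array for Igfbp6, a separation that 8.19% of all probe sets showed at this time. The difference of Igfbp6 was 1.52 ± 0.28 SE (adjusted p = 0.000513). Each of these 4 genes of the list passed whichever single array was left out, but Igfbp5 did not without Spi-21 replicates 1 to 4 (0.25, adjusted p = 0.078).

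In the list of neuregulins, EGF family ligands, ErbB receptors and proteases (14 of 19 measured) 5 genes rose at 21 days and 0 fell (35.7%), and at 60 days 1, Nrg1, rose and 1, Egfr, fell (14.3%). Nrg1 counts here by probe set 1370607_a_at, so its 21-day fall on 1371211_a_at stands outside these counts. With every probe set counted, 19 in all, 7 were higher and 1 lower at 21 days. The 21-day genes were Nrg1, Erbb4, the co-receptor Erbb2 (0.36 ± 0.10 SE, limma adjusted p = 0.0096) and the EGF receptor ligands Ereg (0.34 ± 0.10 SE, adjusted p = 0.0205) and Btc (0.25 ± 0.09 SE, adjusted p = 0.0389). Ereg did not pass without ShamC-21 replicate 1 (0.28, adjusted p = 0.0687), and Btc lost its call when any of 9 single arrays was left out (adjusted p up to 0.0983). Without Spi-21 replicates 1 to 4, 1 gene of this list passed, Erbb4 (0.38, adjusted p = 0.028), and Nrg1 was at adjusted p = 0.0512 and Erbb2 at 0.28 (adjusted p = 0.109). Egfr, the EGF receptor, was lower in Spi-60 (-0.47 ± 0.14 SE, adjusted p = 0.0197). All 8 Spi-60 arrays of Egfr lay below every sham array, a separation that 8.19% of all probe sets showed at this time. Its means, 4.78 in Spi-60 and 5.25 in ShamC-60, lay below the array medians of 6.31 to 6.41. At 21 days the means of Erbb2 (5.99 in Spi-21, 5.63 in ShamC-21), Ereg (5.34, 5.00) and Btc (6.27, 6.02) did too. Without ShamC-60 replicates 1 and 4 Egfr stood at -0.45 (adjusted p = 0.117).

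In the CNTF and LIF list (8 of 12 measured) 0 genes passed at 21 days (0%), and at 60 days 1 fell (12.5%). Cntf, a survival cytokine that Schwann cells and astrocytes make, was lower in Spi-60 (-1.24 ± 0.43 SE, limma adjusted p = 0.0403). Without ShamC-60 replicate 1, the array with the high fibroblast and pericyte mean, the difference was -0.62 (adjusted p = 0.221), and 6 single arrays, this one among them, each removed the call of Cntf when left out. In the list of HGF, VEGF, FGF, midkine and pleiotrophin (17 of 19 measured) 1 gene rose at 21 days (5.88%), and 2 rose and 1 fell at 60 days (17.6%). The heparin-binding factor Mdk, midkine, was higher at both times, by 0.49 ± 0.11 SE (adjusted p = 0.00214) and 0.41 ± 0.11 SE (adjusted p = 0.011). Fgf1, a fibroblast growth factor of motor and sensory neurons, was 0.43 ± 0.13 SE higher at 60 days (adjusted p = 0.0247). Its call was lost without Spi-60 replicate 2 (0.38, adjusted p = 0.0507) or ShamC-60 replicate 4 (0.33, adjusted p = 0.113). Ptn, pleiotrophin, was lower at 60 days (-0.73 ± 0.21 SE, adjusted p = 0.0178), and did not pass without ShamC-60 replicate 1 (-0.58, adjusted p = 0.0796) or replicate 4 (-0.55, adjusted p = 0.089).

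In the list of receptor tyrosine kinase signalling (24 of 46 measured) 4 genes rose and 2 fell at 21 days, and 3 rose and 1 fell at 60 days. The fallen genes at 21 days were the GTPase gene Nras (-0.57 ± 0.11 SE, limma adjusted p = 0.000863) and Spry1, a feedback inhibitor of receptor tyrosine kinases (-0.41 ± 0.11 SE, adjusted p = 0.00907); Spry1 fell also at 60 days (-0.35 ± 0.12 SE, adjusted p = 0.0342). The kinase gene Akt2 and Pik3r2, a regulatory subunit of PI 3-kinase, rose at both times, by 0.33 and 0.35 at 21 days and by 0.29 and 0.41 at 60 days. Pik3r3, a related subunit, and the adaptor Frs3 rose at 21 days (0.37 and 0.55, adjusted p = 0.0299 and 0.0454) and were not called when 1 of 6 arrays (Pik3r3) or 1 of 11 arrays (Frs3) was left out. Map2k2, a MAP kinase kinase, rose at 60 days (0.64 ± 0.19 SE, adjusted p = 0.0192), but not without ShamC-60 replicate 4 (0.50, adjusted p = 0.0887). Akt2 at 60 days missed the threshold without ShamC-60 replicate 1 (adjusted p = 0.0516) or 4 (adjusted p = 0.051), and so did Spry1 when 1 of 5 arrays was left out. Without both ShamC-60 replicates 1 and 4, 0 genes of this list rose and 1 fell at 60 days; without Spi-21 replicates 1 to 4, 1 rose and 1 fell at 21 days. The shares of this list that passed were 25% at 21 days and 16.7% at 60 days.

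The genes whose signal across the 27 arrays was most like each gene were found by Pearson's r over log2 signals, as a description. For Nrg1 probe set 1370607_a_at they were Plekhj1 (r = 0.862), Sdc3 (0.861) and Prkaca (0.858), and for Ntrk2 probe set 1368972_at Uqcrq (0.851), Eif3k (0.831) and Cope (0.825). For Ret probe set 1370989_at they were Gcsh (0.885), Cdr2 (0.881) and Nudt7 (0.871), and for Gfra1 probe set 1387007_at Cavin3 (0.904), Csk (0.887) and Hspb1 (0.875). Igf1 had the lowest values, with Abcb1a (0.664), Emp1 (0.663) and Stab1 (0.661). Over deviations from the group means, r of the same pairs lay between 0.601 and 0.646 for Nrg1, and between 0.859 and 0.944 for Ret. It lay between 0.857 and 0.908 for Gfra1, 0.699 and 0.786 for Ntrk2, and 0.579 and 0.681 for Igf1. ShamC-60 replicate 4 lay far below the rest for Ret. For Gfra1 it was also the lowest of its group, at 7.22 against 8.69 in the next array. The arrays share their amplification and normalisation, and probe sets of 1 array are not independent.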

How the data were processed

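The deposited table holds log2 signals of 12919 Affymetrix probe sets in 27 arrays, made by the authors with RMA per the submitters' processing notes; the RMA version and the rule for listing probe sets are not stated in those notes. RMA scales the arrays to each other, so a shift shared by most transcripts would not show. The 6 control probe sets were left out, with no filter on signal. Arrays give no count depth; their number limits precision.

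Genes were named from the platform annotation, using probe sets with 1 symbol (11880; 320 had several, 713 none). One fit in limma 3.58.1 (R 4.3.3, lmFit and eBayes) held 4 groups without covariates; tests were two-sided, with Benjamini-Hochberg adjustment over 12913 probe sets. The steps were tested on simulated data with changes added to Spi-21. Of 100 changes of 0.5 log2, 50% were recovered, and of 100 changes of 1, 90%, so smaller differences can be missed. The simulated noise was independent between arrays and held no differences shared by sets of arrays. Far fewer probe sets were changed than the 22.6% that passed in the data at 21 days. The adjusted threshold depends on that share, so the recovered shares need not hold for the data. Replicate numbers were checked for pairing. Members, pathway lists and marker lists were chosen with earlier results of these data known. Named pathway genes are up to 5 per list and direction with the smallest p. The 10 alternatives, and leaving out each array, were rerun; for the named pathway genes they were chosen after seeing the data. Promoters came from RefSeq (GRCr8). Python 3.11.15, pandas 2.3.3 and matplotlib 3.10.9 were used.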

Additional observations from a re-analysis of the deposited data

Results flagged for a closer look

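Single arrays lay far from the rest of their group in 7 of 84 groups tested with Dixon's criterion, 4 of them among the 52 groups of the probe sets described here; chance flags about 1 in 20 groups. For Nrg1 probe set 1369783_a_at, ShamC-21 replicate 1 was the highest of its group at 7.28, against 6.68 in the nearest array, and ShamC-60 replicate 4 the lowest at 5.66, against 6.54. For Ret probe set 1370989_at, ShamC-60 replicate 4 was the lowest at 8.23, against 11.40. For Gfra1 probe set 1367954_at, Spi-60 replicate 4 was the lowest at 7.04, against 7.88.

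The motor neuron marker mean was lowest in ShamC-60 replicate 4, at 9.28 against 10.75. The endothelium marker mean was highest in ShamC-60 replicate 1, at 6.99 against 6.33, and the microglia and macrophage marker mean in ShamC-21 replicate 4, at 6.51 against 6.296. Their part in the differences was not tested beyond the values given without ShamC-60 replicates 1 and 4.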

How the results depend on the processing

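The number of probe sets past the threshold was 4 at each time with all arrays, and 3 to 5 at 21 days and 3 to 4 at 60 days when single arrays were left out. At 21 days it was 2 when dimmer probe sets, under the median signal, were dropped, which leaves fewer of them to test, and 2 without Spi-21 replicates 1 to 4; at 60 days it was 2 without ShamC-60 replicates 1 and 4. Without Spi-21 replicates 1 to 4, 1 probe set (Ret 1388208_a_at) passed in the difference between days and 1 in 60 minus 21 days within transected arrays, against 0 and 0 with all arrays. Counting every probe set of a gene gave 21.4% past the threshold for the GDNF list at 21 days, 14.3% at 60 days and 9.09% for the HGF, VEGF and FGF list at 21 days, against 11.1%, 0% and 5.88%.

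The Erbb4 call at 21 days was lost also after a second quantile normalization (0.28, limma adjusted p = 0.0586) and with the 2 compared groups alone (adjusted p = 0.0722). With the replicate block 3 probe sets passed at 21 days and 4 at 60 days; Erbb4 at 21 days was 0.28 (adjusted p = 0.0667). Correlations of same-numbered deviations ran from -0.20 to 0.18 over 6 pairs at 21 days and from -0.31 to 0.33 over 5 pairs at 60 days. Arrays of different numbers were not correlated for comparison, so these values cannot decide whether the numbers pair the samples. Array weights gave a call for Nrg1 1371211_a_at at 60 days (-0.56, adjusted p = 0.003).

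Signs turned for differences that did not pass, and the cause was not tested. At 21 days Nrg1 1371218_a_at was 0.0099 with array weights, 0.020 with the replicate block, 0.017 with the glial covariate and 0.059 without Spi-21 replicates 5 to 8, and Ret 1388208_a_at was 0.0060 with array weights, 0.035 after quantile normalization, 0.091 with the replicate block and 0.31 without Spi-21 replicates 5 to 8. Left out in turn, single arrays gave -0.041 to 0.047 for that Nrg1 probe set and -0.074 to 0.081 for that Ret probe set. At 60 days, with array weights and without ShamC-60 replicates 1 and 4, Nrg1 1369783_a_at was -0.080 and -0.049 (single arrays left out: -0.11 to 0.19), Ret 1370989_at -0.34 and -0.53 (-0.46 to 0.43) and Gfra1 1367954_at -0.38 and -0.53 (-0.32 to 0.30); Nrg1 1371218_a_at was -0.0075 to 0.086 over single arrays left out. For the difference between days, Ntrk2 1368972_at was -0.24 with array weights, -0.25 without ShamC-60 replicates 1 and 4 and -0.41 without Spi-21 replicates 1 to 4 (single arrays: -0.11 to 0.17). Without Spi-21 replicates 5 to 8, Nrg1 1370607_a_at was -0.27 (single arrays: -0.048 to 0.34) and Nrg1 1371218_a_at -0.011 (single arrays: -0.0072 to 0.088). Gfra1 1367954_at was -0.14 without ShamC-60 replicates 1 and 4, and Ntrk3 0.035 without Spi-21 replicates 1 to 4 (single arrays: -0.088 to 0.0063). Probe sets below the array median, such as Erbb4 and Nrg1 1371211_a_at, leave little signal over background.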
